A study of Mus musculus with 6 samples.

Results

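Genes that p53 switches on and genes that hold p53 in check were followed in 10T1/2, an established line of mouse embryonic fibroblasts. The list had 10 genes, namely Cdkn1a, Cdkn2a, Mdm2, Mdm4, Ccng1, Bax, Bbc3, Perp, Gadd45a and Sesn1. They were taken through every probe set that the annotation of the array assigned to 1 gene only, that gene being on the list. This gave 20 probe sets for 9 of the 10 genes, out of 18194 genes measured in all, with 16 probe sets on the MOE430A array and 4 on MOE430B. Bax was not analysed here, since no probe set named it alone, and the gene of p53 itself, Trp53, was not analysed here for the same reason.

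The transcription factor p53 is kept scarce in unstressed cells by Mdm2, which marks it for destruction, and by the related protein Mdm4, which blocks its activity. DNA damage or other stress frees p53, which then switches on genes that halt the cell cycle, such as Cdkn1a, genes that start apoptosis, such as Bax and Bbc3, and Mdm2 itself, so that the response limits itself. The Arf product of Cdkn2a restrains Mdm2 when growth signals are too strong, and in cultured fibroblasts Cdkn2a and Cdkn1a are known for their part in senescence.

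Untreated cells of 1 kind were measured. The medium was DMEM with 10% serum (FBS) and the harvest was at 80% confluency. There were 3 samples, called 1, 4 and 5 in the labels, and each was read on 1 array of each design, which gave 6 arrays. No genotype, agent or time differed between the samples in the labels, and neither passage number nor origin in separate cultures is given there, so the spread between samples may be technical. With 1 group and no second condition there was no test between conditions, and differences between samples are given as values.

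Signals are in the scaled units deposited by the authors. The limit for detection on each array was the 95th percentile of the signals of genes restricted to other tissues, such as liver, pancreas, retina and testis. It stood at 1361, 1378 and 972 on MOE430A and at 3179, 2646 and 2325 on MOE430B in samples 1, 4 and 5. A probe set was called detected when it lay above the limit on 3 of 3 arrays. Of 14 fibroblast markers 10 were detected, against 1 of 9 leukocyte markers (Cd14), 1 of 7 epithelial markers (Epcam, by a MOE430B probe set that can match several transcripts), 0 of 7 endothelial, 0 of 7 skeletal muscle and 0 of 4 adipocyte markers. The samples were not alike in 3 respects that touch the results below. The ratio of the 3' to the 5' control probe set of Gapdh, a sign of RNA quality that rises as transcripts are shortened, was 24.7, 15.0 and 10.6 on MOE430A in samples 1, 4 and 5, and that of beta-actin was 17.5, 9.57 and 8.68. The summed MOE430A signal of the 13 fibroblast markers given by a MOE430A probe set was 428527, 441703 and 187103. That of 23 cell cycle genes known to be repressed downstream of the Cdkn1a protein, p21, was 28564, 111475 and 89214. These were the 23 of 29 measured genes that were given by a MOE430A probe set. In such bulk samples fewer cells of a type and less RNA per cell cannot be told apart.

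DNA bound by p53 is known to hold a pair of half-sites, short palindromic elements. RefSeq starts of the assembly GRCm38.p6 were held for 9 of the 10 genes, all but Perp, with 15 windows of 250 bases before a start. The p53 half-site was searched without mismatch, and since it reads the same on both strands 1 search covers both. It was found in 6 of these 15 windows and in 6 of 9 genes, Cdkn1a, Ccng1, Gadd45a, Mdm2, Sesn1 and Bax, against 7.13% of 32851 windows and 8.20% of 27025 genes in all. The genes were listed as p53 targets for known reasons, so this is a description, and a match is not a shown binding site. A link between half-sites and the differences between samples described below was not tested. The windows of the 5 measured genes with a match are shown because these genes carried those differences. Each is written 5′ to 3′ on the strand of the gene and ends with the last base before the start, and capitals mark the half-sites.

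Cdkn1a, chr17:29090729-29090978, strand +: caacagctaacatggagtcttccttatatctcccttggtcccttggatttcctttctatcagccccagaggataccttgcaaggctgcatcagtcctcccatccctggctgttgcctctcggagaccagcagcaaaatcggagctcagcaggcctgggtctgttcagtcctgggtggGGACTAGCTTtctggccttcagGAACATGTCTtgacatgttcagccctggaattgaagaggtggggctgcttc
Ccng1, chr11:40755287-40755536, strand -: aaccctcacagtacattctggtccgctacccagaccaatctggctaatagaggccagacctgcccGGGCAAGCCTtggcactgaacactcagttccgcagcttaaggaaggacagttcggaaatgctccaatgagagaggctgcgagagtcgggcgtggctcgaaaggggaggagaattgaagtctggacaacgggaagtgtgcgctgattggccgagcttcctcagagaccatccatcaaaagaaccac
Gadd45a, chr6:67037408-67037657, strand -: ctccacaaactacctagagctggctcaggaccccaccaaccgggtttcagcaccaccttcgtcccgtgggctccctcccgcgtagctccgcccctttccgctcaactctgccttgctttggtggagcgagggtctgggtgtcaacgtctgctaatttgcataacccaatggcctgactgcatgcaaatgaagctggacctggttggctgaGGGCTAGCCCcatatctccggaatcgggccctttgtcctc
Mdm2, chr10:117710759-117711008, strand -: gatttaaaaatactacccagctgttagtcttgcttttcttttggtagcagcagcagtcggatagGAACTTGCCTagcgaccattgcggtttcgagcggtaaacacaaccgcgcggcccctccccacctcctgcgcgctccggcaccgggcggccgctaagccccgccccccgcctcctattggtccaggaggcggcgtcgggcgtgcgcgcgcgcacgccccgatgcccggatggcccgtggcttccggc
Sesn1, chr10:41887189-41887438, strand +: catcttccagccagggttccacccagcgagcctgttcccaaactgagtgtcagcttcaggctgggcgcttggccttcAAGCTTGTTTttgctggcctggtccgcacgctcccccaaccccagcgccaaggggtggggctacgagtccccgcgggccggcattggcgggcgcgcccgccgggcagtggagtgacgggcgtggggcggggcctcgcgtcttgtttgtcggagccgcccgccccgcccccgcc

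In Cdkn1a the window of the upstream one of its starts held 2 matches. GGACTAGCTT began 73 bases and GAACATGTCT 51 bases before that start, and the window of the downstream start held no match. Other bases lie between the 2 matches, and whether they form a pair bound by p53 was not tested. A half-site with a mismatch would not be marked. The match in Gadd45a, GGGCTAGCCC, began 40 bases before the start, and those in Ccng1 and Mdm2, GGGCAAGCCT and GAACTTGCCT, began 185 and 186 bases before it. That in Sesn1, AAGCTTGTTT, began 173 bases before the downstream one of its starts. The windows shown for Gadd45a, Ccng1, Mdm2 and Sesn1 held 1 match each and so no pair of exact matches. Windows of Mdm4, Cdkn2a and Bbc3 held no match, which says only that these letters were not in the windows searched.

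The first question was which members the cells expressed above background. Of the 9 measured members 5 were detected by at least 1 probe set, where 27.5% of all 18194 genes were. They were the cell cycle inhibitor gene Cdkn1a, the cyclin gene Ccng1, both regulators Mdm2 and Mdm4, and the stress gene Sesn1. Not detected were Cdkn2a, the apoptosis genes Bbc3 and Perp, and Gadd45a, which lay above the limit in sample 5 alone. By probe set, 6 of 16 were detected on MOE430A, where 22.6% of all probe sets were, and 1 of 4 on MOE430B, where 10.6% were. All 4 members that were not detected had a single probe set, and of the 9152 genes with 1 probe set 15.2% were detected, while the share was 31.9%, 43.0% and 55.4% for genes with 2, 3 and 4 or more. With the limit at the 99th percentile 3 members were detected, without Mdm4 and Sesn1, where 20.1% of all genes were. When a majority of a gene's probe sets was required 2 were, Cdkn1a and Ccng1, against 12.3% of all genes.

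**Figure D1:**
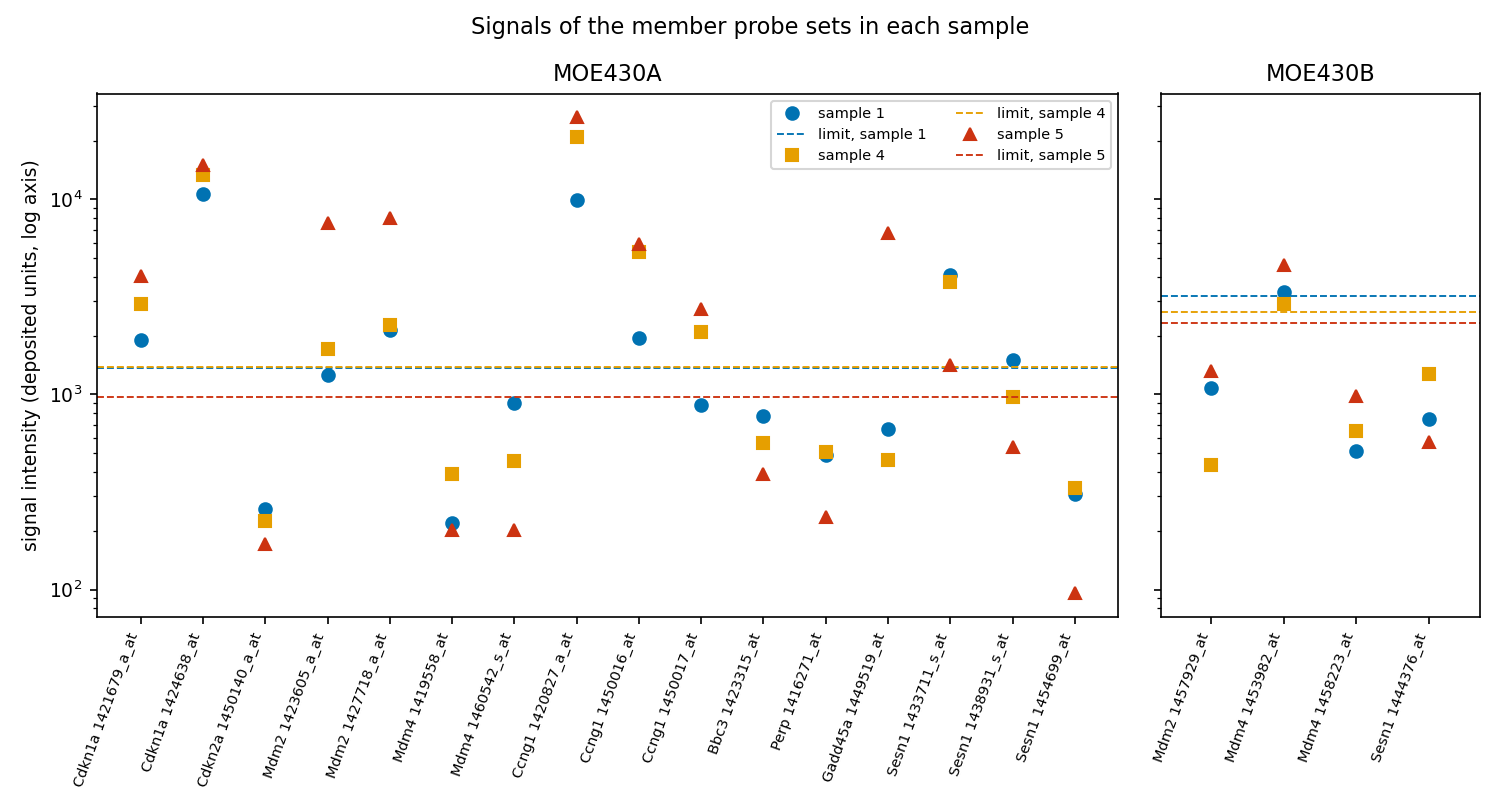
Signal of each member probe set on a log axis in samples 1 (circles), 4 (squares) and 5 (triangles), with MOE430A on the left and MOE430B on the right and dashed lines for the limit of each array. Both Cdkn1a probe sets lie above the limit in all 3 samples, the probe sets of Cdkn2a, Bbc3 and Perp lie below it, and that of Gadd45a is above it in sample 5 only. Heights of different probe sets are not comparable as amounts of RNA.

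Among the regulators of p53, Mdm2, whose product is both a target and the main inhibitor of p53, was detected by 1 of its 3 probe sets. This probe set, 1427718_a_at, read 2135 and 2264 in samples 1 and 4 and 8046 in sample 5, a mean of 4148 ± 3376 (SD, n = 3). Sample 5 stood apart, while samples 1 and 4 were 1.06-fold from each other. The second MOE430A probe set, 1423605_a_at, read 1255, 1705 and 7556, with sample 1 below the limit, and so showed the same order of samples. Sample 5 was 3.66-fold above the mean of the other samples on the log2 scale by the first probe set and at least 4.96-fold by the second, with the low signal raised to the limit. The MOE430B probe set, 1457929_at, read 1080, 436 and 1325 and was below the limit throughout, so it bears on neither the level nor the difference.

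Mdm4, the relative of Mdm2 that inhibits p53 without marking it for destruction, had its only detected probe set, 1453982_at, on MOE430B. It read 3367, 2898 and 4605 in samples 1, 4 and 5, a mean of 3623 ± 882 (SD, n = 3), which is 106%, 110% and 198% of the limit of each array. The MOE430B limit rested on 17 probe sets of 12 genes, and the margin in samples 1 and 4 was small. The other 3 probe sets of Mdm4 were below the limit in all 3 samples, between 201 and 900 on MOE430A and between 514 and 981 on MOE430B. Sample 5 was the highest by the detected probe set, 1.59-fold above sample 4.

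Cdkn2a encodes both the Cdk inhibitor p16 and Arf, the inhibitor of Mdm2, and its probe set is assigned to the gene and not to either product. It read 260, 225 and 171, a mean of 219 ± 44.5 (SD, n = 3), or 19.1%, 16.3% and 17.6% of the limit. All 3 samples lay far below the limit and close to each other. Its neighbour in function Cdkn2b, the gene of another Cdk inhibitor, was detected at 5534, 4706 and 4232. It is named here after its values were seen.

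Of the genes of cell cycle arrest, Cdkn1a, whose product p21 inhibits the cyclin-dependent kinases, was detected by both of its probe sets. The brighter, 1424638_at, read 10624, 13368 and 14958 in samples 1, 4 and 5, with a CV of 16.9%, the lowest among the 20 member probe sets. The other, 1421679_a_at, read 1898, 2917 and 4038, a mean of 2951 ± 1070 (SD, n = 3). Both put sample 1 lowest and sample 5 highest, with 1.41-fold and 2.13-fold between them, so the probe sets shared the order but not the size of the difference. The smaller of these ranges was ordinary for these arrays, since 32.9% of the MOE430A probe sets compared had a smaller one.

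Ccng1, a p53 target whose product cyclin G1 binds a phosphatase and takes part in the control of Mdm2, was detected by 2 of 3 probe sets. Its brightest, 1420827_a_at, read 9901, 20890 and 26363 in samples 1, 4 and 5. The probe set 1450016_at read 1946, 5371 and 5920. The third, 1450017_at, read 883, 2095 and 2751 and was below the limit in sample 1 only. It passed the filter on mean signal only through sample 5. All 3 put sample 1 far below samples 4 and 5, which lay close together, with 1.26-fold, 1.10-fold and 1.31-fold between the latter. Sample 1 was lower than the mean of the other samples by 2.37-fold, 2.90-fold and at least 1.76-fold. The 3 probe sets carry the same source accession, so they are not independent readings of the gene.

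Gadd45a, whose product binds PCNA and Cdk1 and takes part in repair and arrest, read 668 and 463 in samples 1 and 4, and 6715 in sample 5. Samples 1 and 4 were at 49.1% and 33.6% of the limit and sample 5 at 691%. With the low signals raised to the limit sample 5 was at least 4.90-fold above the mean of the others. It passed the filter on mean signal only through sample 5, so its range was in part set by that filter and is given as a description. With the limit at the 99th percentile its mean signal no longer reached the limit and it left the comparison. Its relatives did not share this order, with Gadd45b detected at 1590, 2026 and 1902 and Gadd45g, at 1388, 1135 and 783, not detected.

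The apoptosis genes were below the limit. Bbc3, which encodes the BH3-only protein Puma, read 773, 565 and 391 (576 ± 191, SD, n = 3), or 56.8%, 41.0% and 40.2% of the limit. Perp, which encodes a membrane protein of desmosomes that is also a p53 target in apoptosis, read 490, 505 and 236 (410 ± 151, SD, n = 3). Neither came near the limit in any sample, and since each had 1 probe set, absence of the transcripts was not shown.

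Sesn1, whose product sestrin 1 restrains mTORC1 signalling and guards against oxidation, was detected by 1 of 4 probe sets. It read 4105, 3768 and 1408 in samples 1, 4 and 5, so that sample 5 was 2.79-fold below the mean of the others, while samples 1 and 4 were close. This probe set, 1433711_s_at, can match several transcripts, going by its ending, and without such probe sets Sesn1 was not detected. The other MOE430A probe sets, 1438931_s_at and 1454699_at, were largely below the limit and read 1497, 967 and 536, and 310, 332 and 96.1, and signals below the limit bear on no difference. The MOE430B probe set read 751, 1280 and 571, below the limit. Sesn3, a relative named after its values were seen, read 8258, 3784 and 1706, whereas Sesn2 read 3414, 2559 and 3608 with no drop in sample 5.

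The second question was how far the members differed between the 3 samples of this line. Probe sets were compared where their mean log2 signal exceeded the mean log2 limit, and signals below the limit were raised to it. This kept 9 member probe sets of 5 genes on MOE430A, of 6582 probe sets in all, and 1 of 3478 on MOE430B, that of Mdm4. The highest sample was at least 2 times the lowest in 8 of the 9, against 26.9% of all MOE430A probe sets compared, and not in the 1 on MOE430B, where 20.4% were. Gadd45a passed the filter only through sample 5, so it had to differ. The Ccng1 probe set 1450017_at also passed only through sample 5. The count is a description that supports nothing about the members as a set. The 9 come from 5 genes, so they are not 9 separate cases. The median range was 2.92-fold over the 9 and 1.60-fold over all. Without sample 1 the count was 4 of 9, with Mdm2 (both probe sets), Gadd45a and Sesn1, against 12.9% of all. Without sample 5 it was 2 of 7, both of Ccng1, against 8.73% of all.

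**Figure D2:**
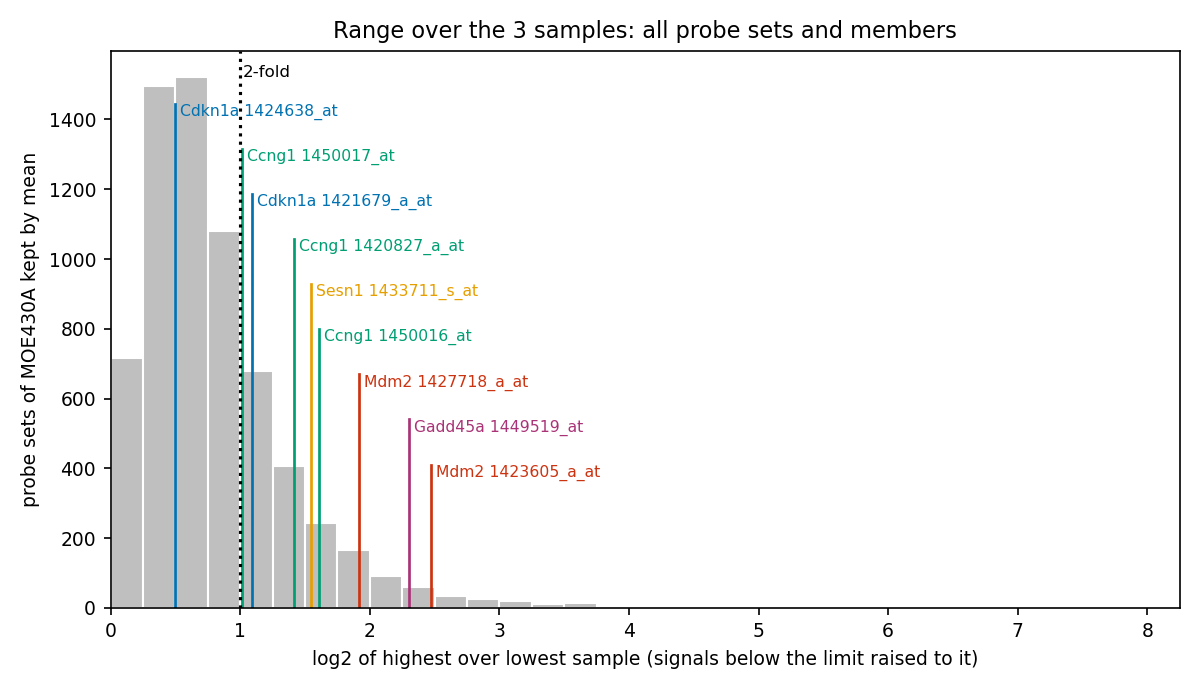
Histogram of the log2 range over samples 1, 4 and 5 (highest over lowest, signals below the limit raised to it) for the 6582 MOE430A probe sets compared, with the member probe sets as coloured lines whose heights only separate the labels. The dotted line marks 2-fold, and 8 of the 9 member probe sets lie to its right.

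The members fell into separate patterns and did not move as 1 group. Sample 5 was the highest in 8 of the 9 MOE430A probe sets, where 36.3% of all were highest in sample 5. Sample 1 was the lowest in 7, where 36.4% of all were. Gadd45a and the Ccng1 probe set 1450017_at passed the filter only through sample 5, so the filter favoured a high sample 5 in them. Every count in this paragraph that holds them is a description only. The ascending order of samples 1, 4 and 5 held in 7 of the 9, all those of Cdkn1a, Ccng1 and Mdm2, against 22.9% of all. Each of these 3 genes had several probe sets compared, and all probe sets of a gene gave the same highest and lowest sample. Within this order the step lay in different places. Ccng1 was low in sample 1 alone, Mdm2 high in sample 5 alone, and the brighter Cdkn1a probe set differed least. Gadd45a was, like Mdm2, high in sample 5 alone, and Sesn1 went the other way. Sample 5 was at least 2 times the mean of the others in Mdm2 (both probe sets) and Gadd45a, where 7.16% of all MOE430A probe sets were, and at most 1/2 of it in Sesn1, where 7.23% were. Sample 1 was at most 1/2 of the mean of the others in 2 Ccng1 probe sets, 1 Mdm2 probe set and Gadd45a, where 5.67% were. For Gadd45a and Mdm2 that count rests on sample 5, since samples 1 and 4 were close.

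**Figure D3:**
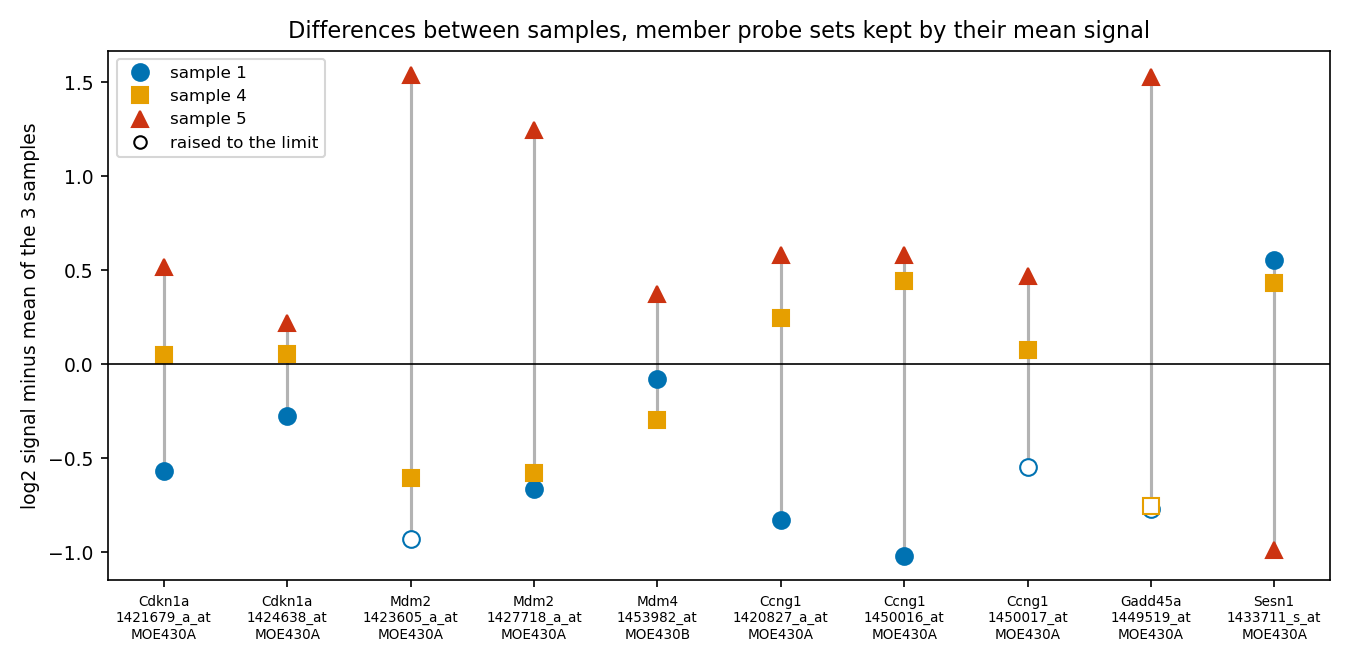
Log2 signal of each of the 10 member probe sets compared, as its difference from the mean of samples 1 (circles), 4 (squares) and 5 (triangles), with open symbols for signals raised to the limit. Sample 5 is on top for Mdm2 and Gadd45a with samples 1 and 4 together, sample 1 is at the bottom for Ccng1 and Cdkn1a, and sample 5 is at the bottom for Sesn1.

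Other measures moved with these patterns. The 3' to 5' ratios of Gapdh and beta-actin on MOE430A were highest in sample 1 and lowest in sample 5, the reverse of the order of Cdkn1a, Ccng1 and Mdm2. On MOE430B that of Gapdh was 23.4, 14.0 and 11.5 and that of beta-actin 20.2, 8.23 and 10.8, so the latter was lowest in sample 4. The cell cycle genes were low in sample 1 as Ccng1 was. Sample 1 was the lowest in 15 of the 17 compared on MOE430A, where 36.4% of all were. Among them Cdk1, the kinase of entry into mitosis, read 1809, 10433 and 4459. Mki67, a marker of dividing cells, read 595, 3678 and 3164, and Ccnb2, a mitotic cyclin, 567, 4695 and 2200. In sample 1 Mki67 and Ccnb2 were below the limit of 1361, so these values do not give the size of their difference. Cdkn1a was also lowest in sample 1, by 1.41-fold and 2.13-fold below sample 5 with its 2 probe sets. A link between Cdkn1a and these genes was not tested. Most fibroblast markers were low in sample 5 as Sesn1 was. Sample 5 was the lowest in 8 of the 11 compared on MOE430A, where 38.8% of all were, sample 1 in 1 and sample 4 in 2. Of the leukocyte markers only Cd14 was detected, at 2151, 2576 and 4147, and the others bear on no difference between samples. The part of RNA quality, of the cell cycle state and of cell makeup in the members' differences was not tested.

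The rest of the pathway was described by 5 further lists with 83 genes. Of these 76 were measured and 39 (51.3%) detected, against 27.5% of all genes. The share detected rose from 15.2% of genes with 1 probe set to 55.4% of those with 4 or more. The lists were not matched to all genes in this respect, so the shares are not a like comparison. Among upstream kinases and cofactors 7 of 12 were detected, but not the damage sensors Atm and Atr or the checkpoint kinase gene Chek1. Atm read 1085, 1725 and 3902 on MOE430B, Atr 1455, 761 and 452 on MOE430B and Chek1 267, 1293 and 1964 on MOE430A, so that Atm and Chek1 were above the limit in sample 5 alone. Of the p53 family and its regulators 8 of 13 were detected. The p53 relatives Trp63 (972 ± 617, SD, n = 3) and Trp73 (617 ± 139) were not detected, nor was the ubiquitin ligase gene Rchy1 (1091 ± 126).

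Further targets of cell cycle arrest had 6 of 14 genes detected. The antiproliferative gene Btg1 read 4685, 4814 and 12522, with sample 5 highest and samples 1 and 4 together, as in Mdm2. Btg2, at 1047, 1751 and 1640, was above the limit in samples 4 and 5 only. Ccng2, the relative of Ccng1, read 5798, 4574 and 4522, with sample 1 highest, unlike Ccng1. Further apoptosis targets had 10 of 19 detected, but not the BH3-only gene Pmaip1 (12.1 ± 6.20, SD, n = 3) or the death receptor genes Fas (73.6 ± 27.5) and Tnfrsf10b (335 ± 250). Targets in repair, metabolism and stress had 9 of 19 detected, among them Gadd45b and Sesn2 but not Gadd45g.

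Across the 36 further genes compared on MOE430A the highest sample was at least 2 times the lowest in 13 (36.1%), against 26.9% of all probe sets, and the median range was 1.53-fold. Sample 1 was highest in 13, sample 4 in 7 and sample 5 in 16, against 34.8%, 28.9% and 36.3% of all. Sample 1 was lowest in 11, sample 4 in 13 and sample 5 in 12, against 36.4%, 24.8% and 38.8% of all. The further genes thus had no shared order of samples. Genes are counted here by 1 probe set each and the members by all, so the counts differ in kind.

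**Figure D4:**
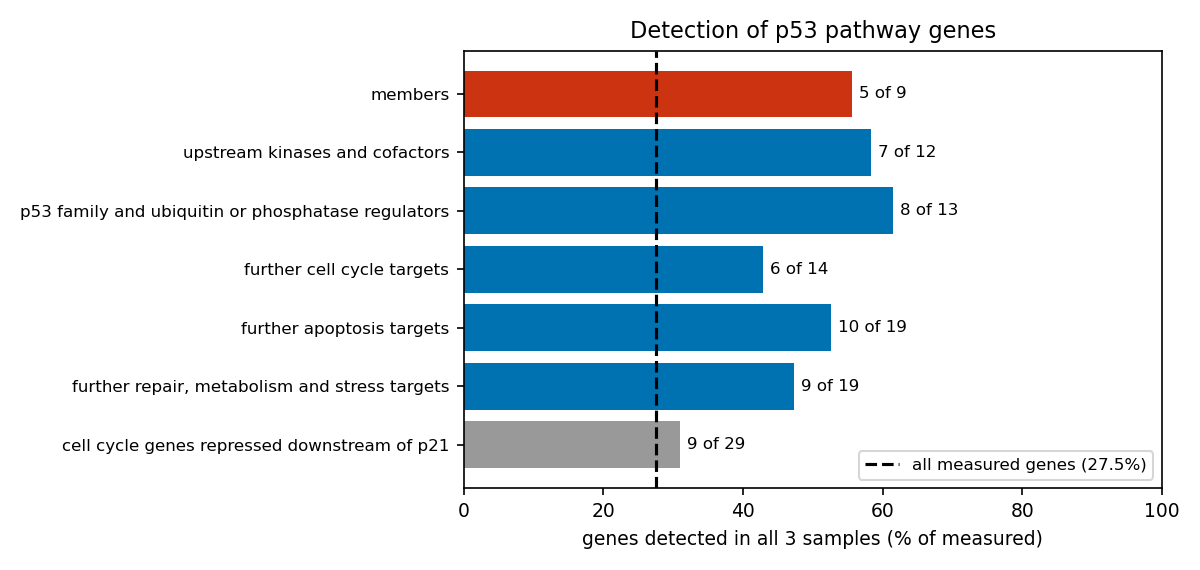
Percent of measured genes detected in all 3 samples for the members (5 of 9), the 5 further lists of the p53 pathway and the cell cycle genes repressed downstream of p21 (9 of 29), with the dashed line at 27.5% for all measured genes. The 5 further lists lie between 42.9% and 61.5%. The lists were not matched to all genes in the number of probe sets per gene.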

How the data were processed

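RNA of 3 samples of 10T1/2 was prepared with RNeasy, with 5 uL at 100 ng/uL supplied per sample, labelled with biotin and hybridised to MOE430A and MOE430B arrays, per the labels' protocols. For each array the authors deposited a table with 1 intensity for every probe set, made with MAS5 per the submitters' processing notes. The settings of MAS5 are not known here. The values are linear, and after trimming 2% at each end their mean was 1501 on each MOE430A and 1500 on each MOE430B array, so each array was scaled on its own and the designs were kept apart. Text files of run settings were not used, and 0 columns of values were left unused.

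Gene names came from the annotation of the platforms, updated to RefSeq symbols through gene identifiers. Of 22690 and 22575 probe sets, 20393 and 14674 named 1 gene, 691 and 245 several, and 1606 and 7656 none. The background list had 113 genes, of which 102 were measured (98 by 141 probe sets on MOE430A, 12 by 17 on MOE430B). Of these Cd8a, Hcrt, Ighm, Lor and Oxt were themselves detected. Every member and probe set is reported. Of each further list the first 3 measured genes are named, and every detected gene where 5 or fewer were detected. Genes outside this rule are said to be named after their values were seen. The members and lists were chosen with earlier results of these data known. The number of arrays limits the precision. Scripts used Python 3.11.15, numpy 2.4.6 and pandas 2.3.3, and the calls were tested on simulated data. Alternatives covered the limit, the scaling, the probe sets, the samples, pseudocounts, the filter and the fold.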

Additional observations from a re-analysis of the deposited data

How the results depend on the processing

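The same 5 members were detected with the limit at the 90th percentile, with quantile normalisation, on at least 2 of 3 arrays, with any sample left out and with the 5 detected genes taken out of the background list, which was tried only after the data had been seen. With the limit at the 99th percentile 3 were detected, against 20.1% of all genes. Without probe sets ending in _s_at or _x_at 4 were, since Sesn1 is then lost. When a majority of a gene's probe sets was required, 2 members and 18 further genes of the pathway were, against 12.3% of all. The number of MOE430A member probe sets with a 2-fold range, 8 of 9, was 4 with a ratio of 3 or more (8.95% of all probe sets compared), and 2 to 8 with a sample left out, where a lone pair of samples remains (12.9%, 20.0% and 8.73% of all without sample 1, 4 and 5). At the 99th percentile it was 6 of 7 (26.6% of all), and Gadd45a was no longer among the probe sets compared. Sample differences of 10 probe sets of Cdkn1a, Ccng1, Mdm2, Gadd45a, Sesn1 and Mdm4, computed 99 times over the alternatives, kept their direction every time. Many of these values could not change, since a limit does not touch signals above it. Those of Cdkn1a, -0.85 and -0.41 (log2), were the same at the 90th and 99th percentile. The differences moved by less than 1 SD in 97 of the 99. The other 2 were those of Ccng1 1450017_at. There sample 1 was at -1.43 and -1.38 (log2) against the mean of the others with pseudocounts of 16 and 64 in place of the limit, and at -0.82 with it. The SD between samples holds the difference itself, so these counts say little about how firm the differences are. For Gadd45a the SD between samples rests on sample 5 itself, so that its 2.29 (log2) counted as unmoved at 3.56 and 3.45 with those pseudocounts and at 2.89 (90th percentile as limit) and 1.86 (99th). The second background list foreseen was not run. No paired analysis was possible because the arrays of a sample carry different probe sets and no 2 groups were tested. Depth has no counterpart in these signals, and members near the limit, Mdm4 in samples 1 and 4, are the least certain.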
